A study of Mus musculus with 12 samples.

Results

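Each gene was described here by how its response to more Foxp1 compared with its response to less Foxp1. The measure was (overexpression minus empty vector) minus (knockdown minus scrambled hairpin) on log2(RPKM + 1), where RPKM is reads per kilobase of exon, scaled to the number of reads in the library. It was tested for every gene with at least 1 RPKM in at least 3 of the 12 libraries, which left 11245 of the 28948 genes listed. A positive difference means that the gene stood relatively higher with more Foxp1 than with less. A difference near 0 means that the gene moved alike in both experiments or did not move. The sum of both responses was tested as well, because it is 0 where they are mirror images of equal size. Values after ± are SE for these log2 quantities (limma, 3 libraries per group).

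All 12 libraries were bulk RNA-seq of 3T3-L1, a fibroblast-like line from Swiss mouse embryos that turns into fat cells in culture. There were 4 groups of 3 libraries: an empty vector control, constitutive Foxp1 overexpression, a scrambled short hairpin RNA control and a short hairpin RNA against Foxp1. Controls and manipulated cells alike had been differentiated with a mixture of troglitazone (10 µM), isobutylmethylxanthine (0.5 mM), dexamethasone (1 µM) and insulin (5 µg/ml). Insulin alone followed from day 4, and plain growth medium from day 6. The sources used here do not give the harvest day, the construct's species or promoter, when it was introduced, whether lines were clones or pools, or what a replicate is. P-values therefore measure only the spread between these libraries, which may be technical. In such bulk RNA, a smaller share of cells of a type and less RNA per cell cannot be told apart.

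Foxp1 is a forkhead transcription factor, a family whose winged-helix domain binds a short AT-rich DNA core. It is known mainly as a repressor, and in mouse brown and beige fat it has been described as holding back thermogenic genes, among them the beta-3 adrenergic receptor. The FoxO factors bind the same kind of core and are kept out of the nucleus when insulin signals. Fat cell identity rests on Pparg and Cebpa, which turn on genes for lipid storage and adipokines.

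Foxp1 followed the labels in every library. Its level was 1.83, 1.76 and 1.82 RPKM for the empty vector, 5.78, 7.16 and 6.75 with overexpression, 2.24, 2.2 and 2.11 with the scrambled hairpin and 1.11, 1.14 and 1.08 with knockdown. No group overlapped another. This was 3.64-fold higher with overexpression and 1.97-fold lower with knockdown, and the responses differed by 2.02 ± 0.08 (adjusted p = 1.7e-09). The rise was the larger response, with a sum of 0.83 ± 0.08 (adjusted p = 5.7e-06). Reads from the cells' own gene and from the construct cannot be told apart.

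Between 35252016 and 38449998 reads per library had been assigned to genes, as read from the steps of the values, and replicates of a group correlated at 0.9972 to 0.9986 across genes. The 2 control groups were far apart: 8070 of 11245 genes (71.8%) differed between the scrambled hairpin and the empty vector, 5037 higher (44.8%) and 3033 lower (27%) with the scrambled hairpin. A response is a distance from its own control, so the level of a gene in both manipulated groups is given where it bears on the picture. Mitochondrial transcripts took 8.61% to 9.35% of reads with the empty vector, 9.65% to 13.11% with overexpression, 4.8% to 5.69% with the scrambled hairpin and 5.97% to 6.82% with knockdown. Overexpression replicate 3 held the 13.11% and stood apart from its group. Of the mature fat cell markers, 17 of 18 were high enough to test, beside 2 of 14 macrophage, 0 of 8 endothelial, 2 of 16 skeletal muscle and 3 of 13 bone and cartilage markers, so markers of the labelled fat cell were present. The defining macrophage gene Adgre1 and the endothelial genes Pecam1 and Cdh5 reached at most 0.0084, 0.3114 and 0.2386 RPKM in any library.

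The responses differed for 6173 of 11245 genes (54.9%), 3888 higher (34.6%) and 2285 lower (20.3%). With median-ratio scaling in place of RPKM as deposited, the split became 3009 higher and 3053 lower, and the median difference over all genes moved from 0.081 to 0.003. The direction of small differences therefore depends on the scaling. The overexpression response was called for 5775 genes (51.4%; 3490 up, 31%, and 2285 down, 20.3%), and the knockdown response for 5587 (49.7%; 2100 up, 18.7%, and 3487 down, 31%). The sum of responses was called for 5377 genes (47.8%; 2598 higher, 23.1%, and 2779 lower, 24.7%).

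Genes fell into classes by which response was called. Opposite responses were the commoner kind among genes called in both, with 2035 genes (18.1%), of which 1360 (12.1%) were up with more and down with less Foxp1 and 675 (6%) the reverse. Alike responses held 1182 genes (10.5%), 531 up in both (4.72%) and 651 down in both (5.79%). In a further 1848 genes (16.4%) only the overexpression response and the difference were called, 1133 up (10.1%) and 715 down (6.36%). In 1678 (14.9%) it was only the knockdown response and the difference, 597 up (5.31%) and 1081 down (9.61%). The difference alone was called for 220 genes (1.96%), 1 response without the difference for 1402 (12.5%), and nothing for 2880 (25.6%). With median-ratio scaling the opposite classes held 997 and 965 genes. Among genes with larger changes nearly all kept their class: of the genes with a ratio of at least 1.5 in each experiment, all 146 raised by more (1.3% of genes), all 108 lowered by more (0.96%), all 41 up in both (0.365%) and 43 of 44 down in both (0.391%) did so. Of the genes named below, Bckdk, Cox8b, Elovl3, Gapdh, Rara, Eno1, Dkc1, Hmgcs1, Fads2, Pparg, Clock and Per2 changed class with that scaling.

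Across all 11245 genes the responses had a Pearson correlation of -0.204 (Spearman -0.143), given as a description since genes are not replicates. The pairs of groups behind the responses share no library. It was -0.325 over the 3217 genes called in both and -0.535 over the 339 called genes with a ratio of at least 1.5 in both. The mirror pattern was thus partial. Of 352 genes raised at least 2-fold by overexpression, 41.8% fell with knockdown and 12.2% rose. Of 282 lowered at least 2-fold, 44.7% rose with knockdown and 22% fell too. Over all genes, 18.7% rose and 31% fell with knockdown. Read from the other side, 58.4% of the 89 genes lowered at least 2-fold by knockdown rose with overexpression and 12.4% fell. Of the 104 genes raised at least 2-fold by knockdown, 38.5% fell with overexpression and 19.2% rose, where 20.3% and 31% of all genes did. Among the 2035 opposite genes, the overexpression response was the larger, by the test of the sum, in 546 (4.86% of genes tested) and the knockdown response in 240 (2.13%). In the other 1249 (11.1%) the sum was not called.

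**Figure D1:**
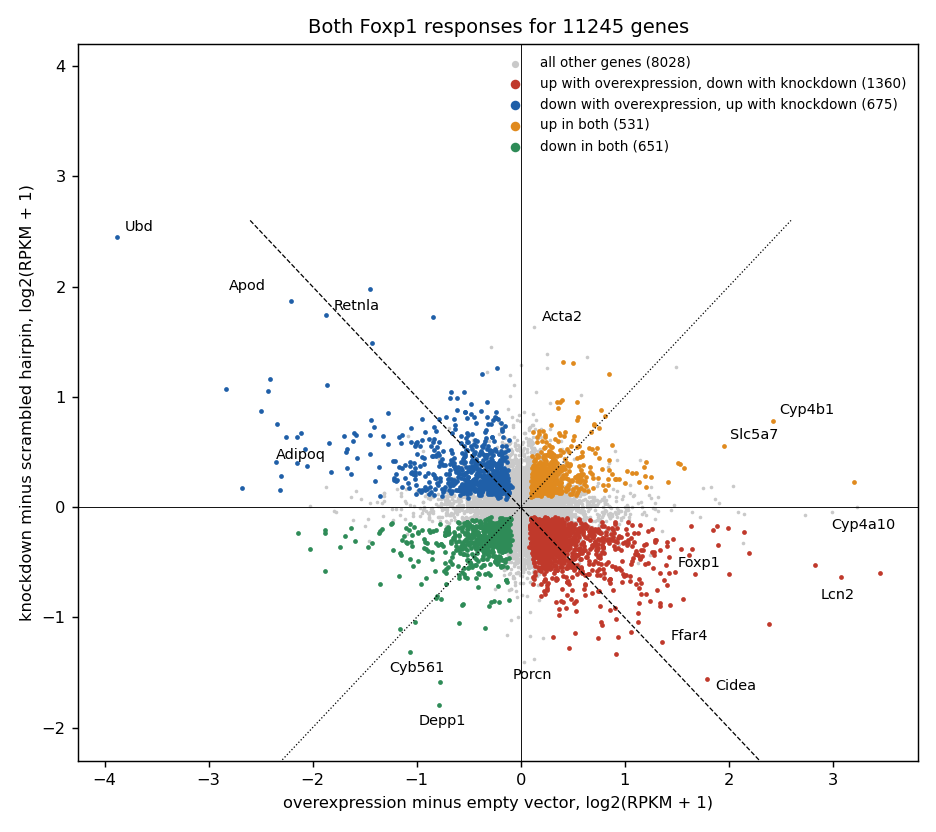
Response to Foxp1 overexpression (x axis, log2(RPKM + 1) difference from the empty vector) against response to knockdown (y axis, difference from the scrambled hairpin), one point per gene, 11245 genes. Red (1360) and blue (675) mark genes called in opposite directions, orange (531) and green (651) genes called in the same direction; the dashed line is the exact mirror image and the dotted line an equal response. Ubd lies at the upper left end, Cidea and Lcn2 at the lower right, and Cyb561 and Depp1 at the lower left.

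The clearest opposite responses were of genes lowered by more Foxp1. Ubd, which encodes the ubiquitin-like modifier FAT10, was at 34, 32.8 and 32.6 RPKM for the empty vector, 1.14, 1.43 and 1.37 with overexpression, 5.4, 4.38 and 5.25 with the scrambled hairpin and 32.9, 29.9 and 32.7 with knockdown. It was scarce in the overexpression and scrambled libraries and abundant in the others, and no manipulated library overlapped its control. It was 25.2-fold lower with more Foxp1 and 6.35-fold higher with less, a difference of -6.34 ± 0.10 (adjusted p = 1.0e-12). Apod, a lipocalin that carries lipids, was 4.77-fold lower and 4.27-fold higher (difference -4.08 ± 0.14, adjusted p = 3.8e-10), from controls that differed, 111, 98.4 and 112 RPKM for the empty vector and 4.02, 4.05 and 5.05 for the scrambled hairpin. Retnla, a secreted resistin-like protein, was 4.36-fold lower and 3.39-fold higher (difference -3.61 ± 0.11). Its reads may be shared with its close relative Retn, which fell in both experiments, so its level is less certain.

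Among genes raised by more and lowered by less Foxp1, Cidea stood out, a lipid droplet protein typical of brown fat. It was at 2.34, 3.78 and 2.85 RPKM for the empty vector, 12.3, 12.9 and 12.8 with overexpression, 5.73, 5.3 and 6.27 with the scrambled hairpin and 1.22, 1.21 and 1.48 with knockdown. Overexpression libraries were the highest and knockdown libraries the lowest of the 4 groups, without overlap. It was 4.23-fold higher with more Foxp1 and 4.43-fold lower with less (difference 3.35 ± 0.15, adjusted p = 3.0e-09). Ffar4, the receptor for long-chain omega-3 fatty acids, was 3.44-fold higher and 2.68-fold lower (difference 2.59 ± 0.15, adjusted p = 3.1e-08). Sdc3, a heparan sulfate proteoglycan, showed ratios of 2.84-fold up and 2.35-fold down (difference 2.17 ± 0.08, adjusted p = 5.6e-10). 

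**Figure D2:**
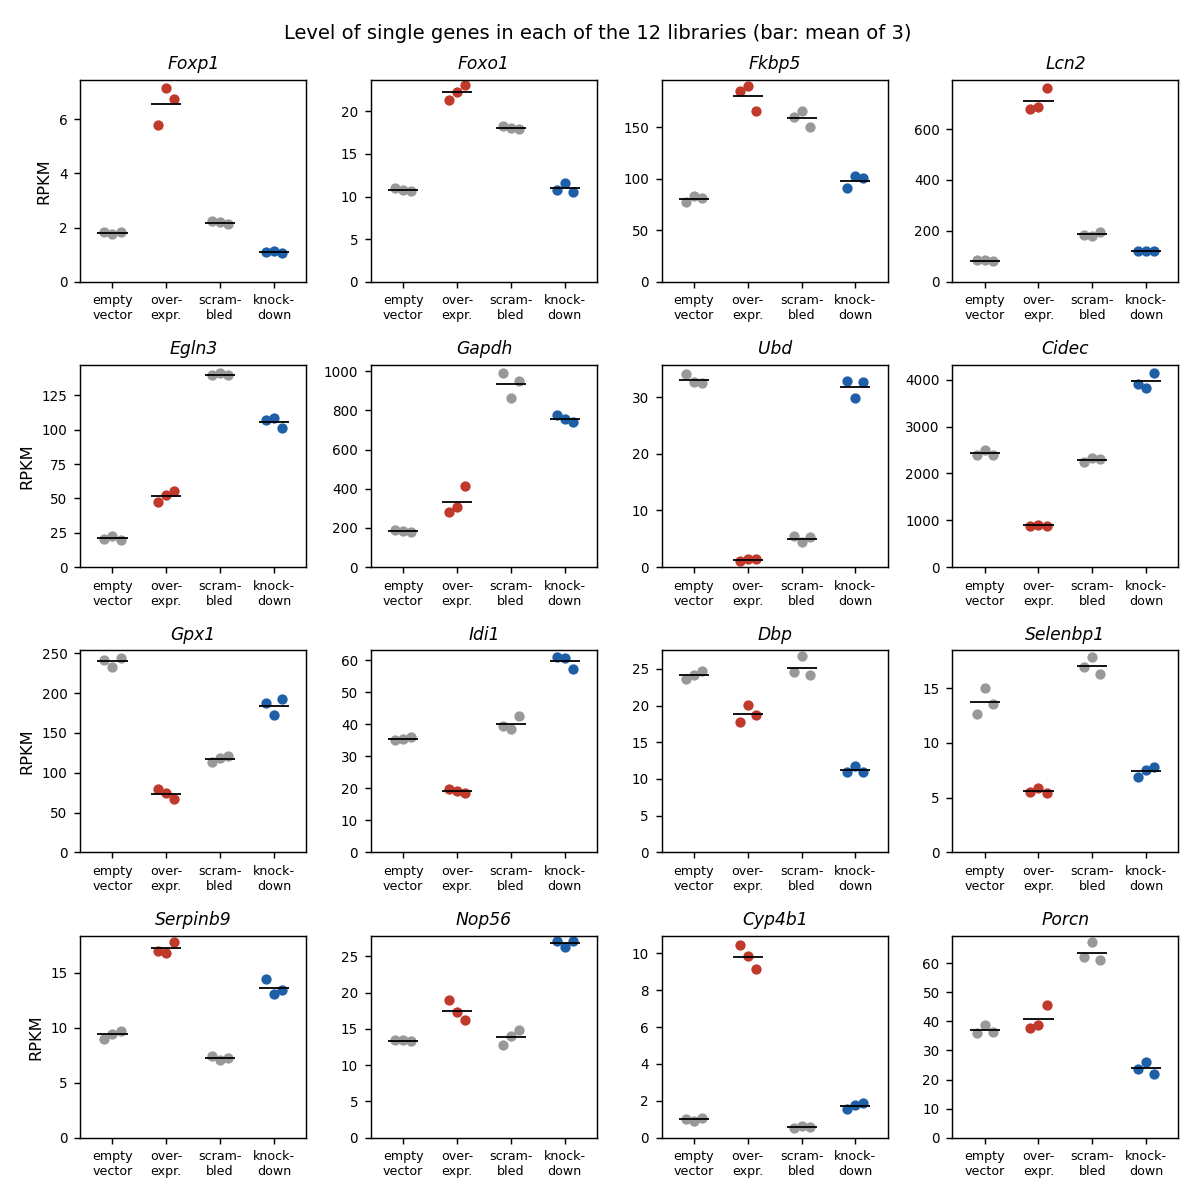
RPKM of 16 genes in each library (points, 3 per group; bar, group mean) for the empty vector, overexpression, scrambled hairpin and knockdown groups; every axis starts at 0. Foxo1, Fkbp5 and Lcn2 were higher with more and lower with less Foxp1, Ubd, Cidec, Gpx1 and Idi1 the reverse, Dbp and Selenbp1 lower in both, Serpinb9, Nop56 and Cyp4b1 higher in both, and Porcn lower with knockdown only.

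Forkhead genes leaned the same way as Foxp1, and the lowest difference of any tested member was 0.09. As the manipulated gene, Foxp1 is in the counts below by design. Of 18 tested members of the family, Foxp1 included, 13 had a higher and 0 a lower response to overexpression than to knockdown, beside 34.6% and 20.3% of all genes, and the median difference was 0.40 against 0.08 over all genes. The opposite class, up with more and down with less (12.1% of all genes), took 7 members: Foxp1, Foxo1, Foxo3, Foxo6, Foxc2, Foxj3 and Foxn3. Foxo1, which drives fasting metabolism and restrains fat cell differentiation, was at 11, 10.7 and 10.7 RPKM for the empty vector, 21.3, 22.3 and 23.1 with overexpression, 18.3, 18.1 and 17.9 with the scrambled hairpin and 10.8, 11.5 and 10.5 with knockdown. Overexpression brought it to the top of the 4 groups and knockdown back to the range of the empty vector. It was 2.06-fold higher and 1.65-fold lower, a difference of 1.65 ± 0.06 (adjusted p = 3.9e-10). Foxo6 was 1.57-fold higher and 3.61-fold lower, from 1.93 ± 0.181 and 4.3 ± 0.355 RPKM in the controls (SD, n = 3; difference 1.73 ± 0.09, adjusted p = 1.9e-08). Foxk1 rose with overexpression only and Foxk2 fell with knockdown only, both with a called difference (0.47 ± 0.10 and 0.27 ± 0.06), and both encode factors linked to glycolysis. Foxp4, the sister gene of Foxp1, had a difference of 0.12 ± 0.07 (95% interval -0.04 to 0.27, adjusted p = 0.18), which was 0.17 and called without overexpression replicate 1. Foxm1, a driver of mitosis, rose in both experiments and Foxj2 fell in both. In the controls, 13 of the 18 were higher with the scrambled hairpin and 0 lower, beside 44.8% and 27% of all genes.

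Targets of the FoxO factors were mixed. Of 17 tested targets, the factors themselves left out, 10 were higher and 6 lower in the difference, beside 34.6% and 20.3% of all genes. Pck1, the gluconeogenic and glyceroneogenic enzyme, was 5.08-fold higher with more Foxp1 and 1.17-fold lower with less (difference 2.06 ± 0.08, adjusted p = 7.7e-10). Pdk4, the kinase that shuts pyruvate out of the citric acid cycle, was at 20.8, 23.2 and 21.1 RPKM for the empty vector, 52.4, 51.2 and 45.1 with overexpression, 18.2, 18 and 17.6 with the scrambled hairpin and 10.3, 10.5 and 9.22 with knockdown. Every overexpression library lay above and every knockdown library below its control, and the fold changes were 2.28 up and 1.79 down (difference 1.94 ± 0.09, adjusted p = 4.2e-09). Fbxo32, a ubiquitin ligase of muscle wasting, and Txnip, which curbs glucose uptake, moved the same way (0.87 ± 0.07 and 0.56 ± 0.06). Pnpla2, which encodes the lipase ATGL, moved the other way (-0.80 ± 0.06), and Klf15 and Cited2 fell in both. The insulin receptor substrate Irs2 fell with overexpression only (difference -0.43 ± 0.07).

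Genes induced by glucocorticoids, a class to which the dexamethasone of the medium belongs, split between the mirror pattern and a fall in both experiments. The 17 tested genes were not all of this kind, since they include the receptor Nr3c1 and its chaperone Fkbp4. Of these 17, 12 were higher and 1 lower in the difference, beside 34.6% and 20.3% of all genes. The medians were 0.15 for overexpression and -0.40 for knockdown, against 0.044 and -0.042 over all genes. By class, 5 were up with more and down with less Foxp1 and 4 fell in both, beside 12.1% and 5.79% of all genes. Fkbp5, a chaperone that dampens the glucocorticoid receptor, was at 77.3, 82.9 and 80.8 RPKM for the empty vector, 185, 191 and 166 with overexpression, 160.3, 166 and 151 with the scrambled hairpin and 91.3, 103 and 101 with knockdown. It was 2.24-fold higher with more and 1.62-fold lower with less Foxp1 (difference 1.85 ± 0.09, adjusted p = 5.6e-09), with no overlap of either pair. Lcn2, the siderophore-binding adipokine lipocalin 2, was at 85.1, 83.5 and 79.3 RPKM for the empty vector, 681, 686 and 759.8 with overexpression, 182, 181 and 197 with the scrambled hairpin and 119.9, 121 and 121 with knockdown. Its rise of 8.58-fold was larger than its fall of 1.55-fold, with a sum of 2.45 ± 0.07 (adjusted p = 2.3e-10). The metallothionein genes Mt1 and Mt2, which bind zinc and copper, and Glul, glutamine synthetase, chosen after its values were seen, were opposite as well, with differences of 1.25, 2.09 and 0.79. Zbtb16, Klf9, Hsd11b1 and Errfi1 fell in both. For Zbtb16 and for Hsd11b1, the enzyme that regenerates active glucocorticoid, the responses did not differ detectably (0.04 ± 0.16, 95% interval -0.30 to 0.38, and 0.04 ± 0.08, -0.14 to 0.22). Sgk1, a kinase downstream of insulin and glucocorticoid, rose in both, and the receptor Nr3c1 fell with knockdown only.

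Glycolysis, which breaks glucose down to pyruvate, responded unequally. All 15 tested enzymes had a higher response to overexpression than to knockdown, beside 34.6% of all genes. With median-ratio scaling all 15 did so too. The median was 0.69 for overexpression, -0.09 for knockdown and 0.93 for the difference. For 8 enzymes the rise with more Foxp1 had no called counterpart with less, among them Aldoa, Pgk1, Eno1 and Pkm. Of all genes, 10.1% were in that class. Pgk1 was at 142, 148 and 143 RPKM for the empty vector, 299, 276 and 318 with overexpression, 603, 618 and 666 with the scrambled hairpin and 623, 531 and 554 with knockdown. The overexpression libraries lay about midway between the empty vector libraries and those of both hairpin groups, which overlapped. Its responses were 1.04 ± 0.07 and -0.15 ± 0.07 (adjusted p = 6.1e-08 and 0.087), and they differed by 1.18 ± 0.09 (adjusted p = 5.1e-07). Opposite calls, up with more and down with less (12.1% of all genes), were made for 5 enzymes: Hk2, Gpi1, Pfkp, Eno2 and Gapdh. With median-ratio scaling 11 of the 15 enzymes kept their class. Hk2, the hexokinase of insulin-responsive tissue, was at 32.2, 34.9 and 34.7 RPKM for the empty vector, 56.9, 63.4 and 53.3 with overexpression, 70, 73.3 and 66.8 with the scrambled hairpin and 49, 55.2 and 49.1 with knockdown. It was 1.7-fold higher and 1.37-fold lower without overlap in either pair (difference 1.2 ± 0.09, adjusted p = 4.7e-07). Gapdh, chosen after its values were seen, was at 189, 184 and 179.6 RPKM for the empty vector, 279, 308 and 412 with overexpression, 991, 864 and 952 with the scrambled hairpin and 775, 757 and 742 with knockdown. Its fall with knockdown (adjusted p = 0.036) was not called with median-ratio scaling, and its many processed pseudogenes make its reads uncertain. Pfkl rose in both and Pfkm fell with knockdown only. The scrambled hairpin group exceeded the empty vector group in 14 of 15 enzymes, beside 44.8% of all genes. The mean level with overexpression stayed below that with knockdown in 10 of 15, beside 5794 of all 11245 genes.

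Around pyruvate the responses were mixed. Bsg, the chaperone of the lactate carriers, and Ldhb rose with more and fell with less Foxp1 (1.03 ± 0.05 and 0.55 ± 0.08). Ldha, which makes lactate, and Slc16a1, the lactate carrier MCT1, rose in both, more with overexpression (0.65 ± 0.06 and 0.67 ± 0.06). Pdk1, which restrains pyruvate dehydrogenase, rose with overexpression only. The glucose transporter Slc2a1 also rose with overexpression only (difference 0.86 ± 0.07), while the insulin-responsive Slc2a4, GLUT4, was opposite (1.27-fold up, 1.25-fold down, difference 0.67 ± 0.06, adjusted p = 1.8e-06).

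Targets of the hypoxia-inducible factors outside glycolysis were mostly raised by more and lowered by less Foxp1. Of 23 tested, 20 were higher and 1 lower in the difference, beside 34.6% and 20.3% of all genes. By class, 12 were up with more and down with less Foxp1 (12.1% of all genes were). The median response was 0.59 to overexpression and -0.32 to knockdown. Egln3, a prolyl hydroxylase that marks the hypoxia factors for destruction, was at 20.7, 22.5 and 19.7 RPKM for the empty vector, 47.6, 52.2 and 55.2 with overexpression, 139.5, 141 and 139.6 with the scrambled hairpin and 107, 108 and 101 with knockdown. The groups stepped up from the empty vector through overexpression and knockdown to the scrambled hairpin without overlap. Egln3 was 2.47-fold higher and 1.33-fold lower (difference 1.67 ± 0.08, adjusted p = 7.3e-09). It was chosen from the 12 opposite genes after its values were seen. Ndrg1, a stress-induced protein, was at 0.743, 0.781 and 0.723 RPKM for the empty vector, 2.24, 2.31 and 2.38 with overexpression, 5.99, 6.57 and 5.5 with the scrambled hairpin and 2.36, 2.55 and 2.49 with knockdown. Overexpression and knockdown libraries were close together, far from a low and a high control. It was 3.08-fold higher and 2.44-fold lower, with a sum of -0.10 ± 0.07 (adjusted p = 0.31). Adding 1 understates the rise from below 1 RPKM the most, so this sum does not show responses of equal size. Car9, an extracellular carbonic anhydrase, Egln1 and Ddit4, an inhibitor of mTORC1, were opposite too, with differences of 1.47, 1.09 and 1.35. Vegfa, Ero1l and Nrn1 fell in both, Adm, the vasodilator adrenomedullin, fell with knockdown only (2.76-fold), and Pfkfb3, which makes the activator of phosphofructokinase, ran against the list, 2.26-fold lower with more and 1.18-fold higher with less. The scrambled group had the highest mean in 21 of 23, beside 3900 of all 11245 genes. Overexpression stayed below knockdown in 21, beside 5794 of all genes. Whether the control difference plays a part in these responses was not tested.

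**Figure D3:**
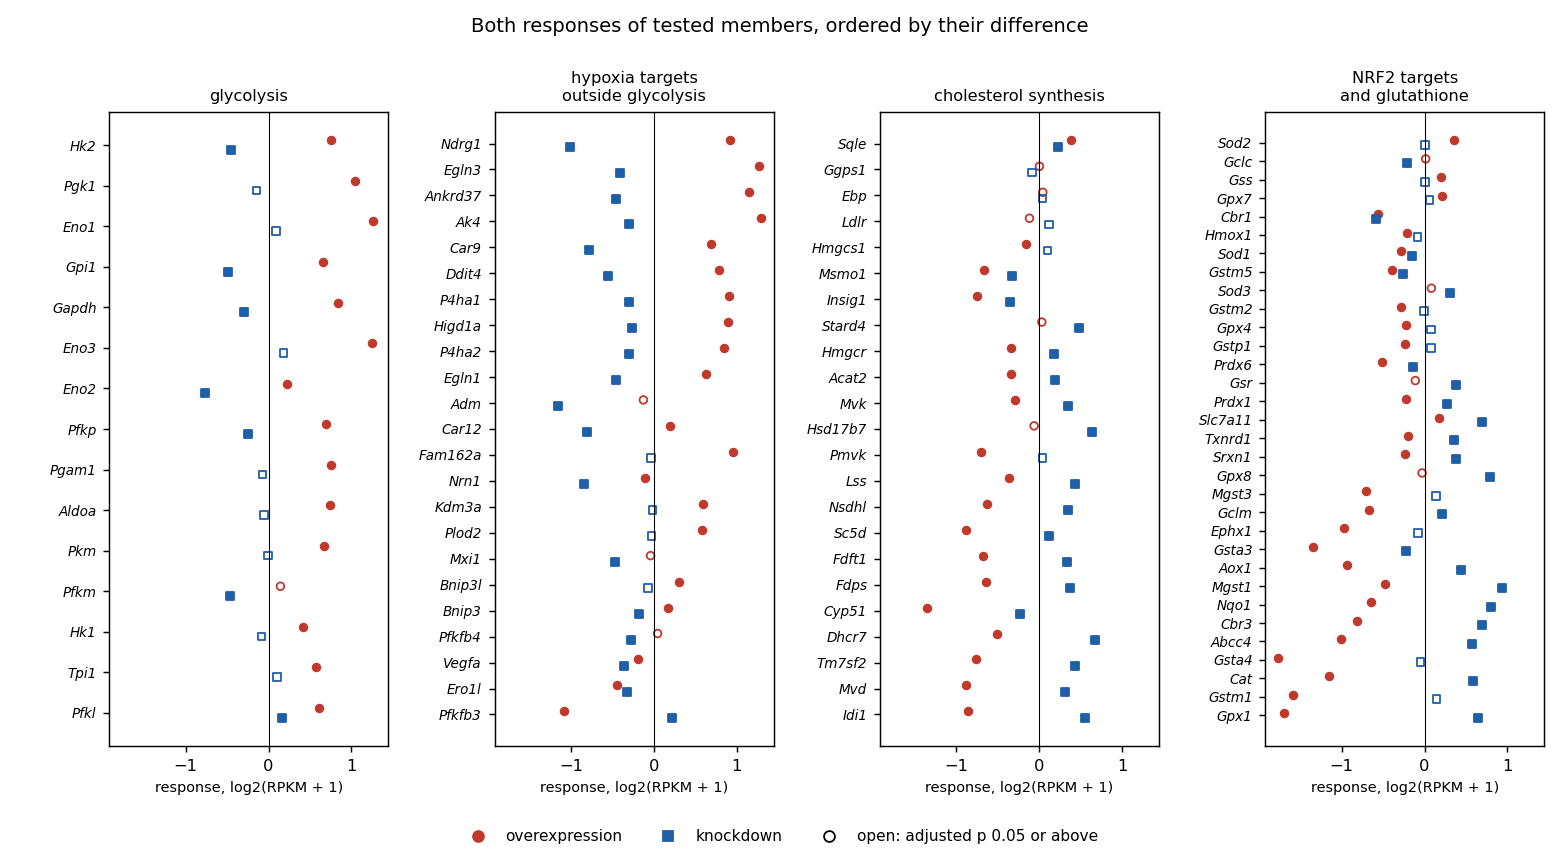
Response to overexpression (red circles) and to knockdown (blue squares) of tested members of 4 lists, on log2(RPKM + 1) (x axis); members (y axis) are ordered by the difference, and open symbols did not pass an adjusted p of 0.05. In glycolysis and the hypoxia list circles lie mostly right of squares, in cholesterol synthesis and the NRF2 list mostly left.

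The hypoxia factors bind a core spelled ACGTG. RefSeq promoter windows on GRCm38.p6, 250 bases before to 50 after each gene start, were searched for it on both strands. It overlaps the E-box CACGTG, which other factors bind. The core was in 19.62% of all 32851 windows, in 30.42% of the tested genes with a window, in 14 of 18 matched hypoxia targets (77.78%) and in 8 of 15 glycolytic genes (53.33%). The windows of Car9 (chr4:43506776-43507075, plus strand) and Hk2 (chr6:82774405-82774704, minus strand) are shown, with the core in capitals. Opposite genes that hold the core were ranked by the larger adjusted p of both responses, smallest first, and each was first in its list. A match on the other strand reads CACGT in the letters printed. A match is a description of letters, not a site or a cause.
Car9: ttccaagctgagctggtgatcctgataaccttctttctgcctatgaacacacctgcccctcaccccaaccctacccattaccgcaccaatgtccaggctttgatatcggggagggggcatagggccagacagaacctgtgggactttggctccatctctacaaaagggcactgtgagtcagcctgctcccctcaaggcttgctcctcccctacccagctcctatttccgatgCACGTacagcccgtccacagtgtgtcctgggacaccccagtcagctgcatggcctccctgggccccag
Hk2: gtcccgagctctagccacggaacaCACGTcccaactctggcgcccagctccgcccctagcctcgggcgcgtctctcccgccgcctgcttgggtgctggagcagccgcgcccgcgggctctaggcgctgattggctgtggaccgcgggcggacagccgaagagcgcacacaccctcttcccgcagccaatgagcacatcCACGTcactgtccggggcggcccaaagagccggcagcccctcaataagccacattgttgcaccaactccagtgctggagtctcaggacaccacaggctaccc

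Markers of the mature fat cell moved mainly against Foxp1. Of 17 tested, 2 were higher and 14 lower in the difference, beside 34.6% and 20.3% of all genes. The median was -0.54 for overexpression and 0.16 for knockdown, and 9 fell with more and rose with less Foxp1 (6% of all genes did). Cidec, which fuses lipid droplets, was at 2386, 2506 and 2397 RPKM for the empty vector, 885, 907 and 886 with overexpression, 2246, 2325 and 2312 with the scrambled hairpin and 3904, 3830.1 and 4148 with knockdown. The controls lay close together, overexpression far below both and knockdown far above both. It was 2.72-fold lower and 1.73-fold higher (difference -2.23 ± 0.06, adjusted p = 1.2e-10), and the controls did not differ by the test (-0.08 ± 0.05, adjusted p = 0.12). Adipoq, which encodes the insulin-sensitizing hormone adiponectin, was at 1967, 1934 and 1944 RPKM for the empty vector, 455, 422 and 435 with overexpression, 883, 899 and 949 with the scrambled hairpin and 1414, 1353 and 1481 with knockdown. Knockdown levels lay between both controls, and overexpression levels below every other library. It was 4.45-fold lower and 1.56-fold higher (difference -2.79 ± 0.07, adjusted p = 2.5e-11). Cfd, the complement factor adipsin, and Aqp7, the glycerol channel, were also opposite (-3.37 ± 0.13 and -2.13 ± 0.08), as were Plin1, the main droplet coat, and Cd36, a fatty acid carrier (-0.57 ± 0.05 and -1.0 ± 0.06). Retn, Pparg and Cebpa fell in both. The falls of the 2 master regulators were small, to ratios of 0.806 and 0.926 for Pparg and 0.687 and 0.844 for Cebpa, and with median-ratio scaling the knockdown response of Pparg was not called. Slc2a4 and Pck1 rose with more and fell with less Foxp1. The summed level of the 18 listed markers was 12555 to 12748 RPKM for the empty vector, 6149 to 6454 with overexpression, 8862 to 9117 with the scrambled hairpin and 11841 to 12565 with knockdown.

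Markers of preadipocytes, the cells that become fat cells, had no common direction. Their summed level over 17 listed genes was 519 to 551 RPKM for the empty vector, 694 to 751 with overexpression, 461 to 484 with the scrambled hairpin and 445 to 485 with knockdown. The overexpression libraries were thus above all others, and both hairpin groups overlapped. Of 11 tested, 6 were higher (54.5%) and 4 lower (36.4%) in the difference, both shares above those of all genes (34.6% and 20.3%), so the count has no direction of its own. Dlk1, the preadipocyte protein Pref-1, Sox9 and Vim, vimentin, rose with overexpression only (1.48-fold, 2.14-fold and 1.43-fold). Pdgfra, Zfp423 and Ebf2 fell with overexpression only, Thy1 was up with more and down with less Foxp1 (0.87 ± 0.09), Pdgfrb and Anxa3 rose in both, and Ly6a, the progenitor antigen Sca-1, fell in both. Cd34 and other listed progenitor genes were too low to test. Whether the share of undifferentiated cells plays a part in the fat cell marker responses was not tested.

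Lipid droplet and lipogenic genes were not all of one kind, though the lipogenic lists leaned lower in the difference. Of 21 tested genes of fatty acid and triglyceride synthesis, 12 were lower and 4 higher, beside 20.3% and 34.6% of all genes. Among 16 desaturases and elongases, a list that shares members with it, 10 were lower and 2 higher. The 15 droplet coat and lipolysis genes held 6 lower (40%) and 5 higher (33.3%). Beside Cidec, the coat genes Plin1 and Plin2 and the lipase Pnpla2 were lower with more and higher with less Foxp1. Cidea, the coat gene Plin3 (0.95 ± 0.08) and the ATGL inhibitor G0s2 (1.34 ± 0.09) ran the other way. Scd1, which makes monounsaturated fatty acids, was 2.2-fold lower and 1.28-fold higher (difference -1.5 ± 0.08, adjusted p = 1.2e-08). Acacb, which makes the malonyl-CoA that checks fatty acid oxidation, was opposite in the other sense (2.49-fold up, 1.46-fold down, difference 1.51 ± 0.13). Mlxipl, the glucose-sensing factor ChREBP, did likewise (0.90 ± 0.10). Elovl6, an elongase, rose in both by 1.81-fold and 1.59-fold, and Acly, which supplies acetyl-CoA, fell in both. Elovl5, Fads1 and Fads2, the enzymes of polyunsaturated fatty acids, fell in both as well. Dgat2, the last step of triglyceride synthesis, and Pnpla3, a lipase, fell with knockdown only (1.55-fold and 3.21-fold).

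Among transcription factors of fat cell formation, the largest classes were an opposite and a falling one. Of 24 tested, 8 were up with more and down with less Foxp1 (12.1% of all genes were) and 5 fell in both (5.79%). The opposite class held Egr2, an early factor of the programme, and Klf2 and Foxo1, which restrain it, and also the early factors Cebpb, Cebpd and Klf4, which were chosen after their values were seen. Cebpb was at 105, 108 and 101 RPKM for the empty vector, 218, 192 and 135 with overexpression, 181, 179 and 185 with the scrambled hairpin and 130.3, 125 and 140.1 with knockdown. Overexpression replicate 3 lay below the other 2 but above every empty vector library, and the difference was 1.22 ± 0.18 (adjusted p = 1.0e-04). Pparg, Cebpa, Klf15, Rxra and Ppard fell in both. For Rxra, the partner of Pparg, the ratios were 0.758 and 0.792, and the difference of -0.06 ± 0.06 had a 95% interval of -0.19 to 0.07 (with median-ratio scaling it was -0.16 and called). Nr1h3, the oxysterol receptor LXR alpha, and Ppargc1a, a coactivator of mitochondrial genes, fell with more and rose with less, while the related Ppargc1b did the reverse.

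Genes typical of brown and beige fat did not move as one. Of 19 listed, only 9 were high enough to test. Ucp1, Dio2 and Prdm16 were not, reaching at most 0.0799, 0.0546 and 0.0117 RPKM in any library. Cidea, Cox7a1 and Elovl3 were raised by more and lowered by less Foxp1, and Ppargc1a did the reverse. Cox7a1, a tissue isoform of cytochrome c oxidase, was at 21.2, 20.3 and 17.2 RPKM for the empty vector, 46.6, 44.6 and 47.2 with overexpression, 34.6, 33.3 and 32.2 with the scrambled hairpin and 19.5, 17.5 and 20 with knockdown. It was 2.36-fold higher and 1.76-fold lower (difference 1.99 ± 0.10, adjusted p = 8.3e-09). Cox8b, another such isoform, was 4.52-fold higher with more Foxp1. Its fall with knockdown (1.23-fold) was not called with median-ratio scaling. Adrb3, the beta-3 adrenergic receptor, was at 4.17, 3.81 and 4.57 RPKM for the empty vector, 0.313, 0.274 and 0.233 with overexpression, 0.411, 0.573 and 0.485 with the scrambled hairpin and 0.505, 0.565 and 0.441 with knockdown. Only the empty vector libraries held more than 1 RPKM. It was 15.3-fold lower with more Foxp1 and had no called response to less (0.01 ± 0.06, adjusted p = 0.87), and the scrambled hairpin group differed from the empty vector group by -1.8 ± 0.06. Kcnk3, a potassium channel that restrains brown fat, fell in both.

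Cholesterol synthesis was lowered by more Foxp1 and raised by less. Of 24 tested genes, 21 were lower and 1 higher in the difference (20.3% and 34.6% of all genes), and 13 were opposite, beside 6% of all genes. The medians were -0.56 for overexpression and 0.27 for knockdown. Idi1, which makes the activated isoprene unit, was at 35, 35.5 and 35.9 RPKM for the empty vector, 19.6, 19.1 and 18.6 with overexpression, 39.5, 38.6 and 42.5 with the scrambled hairpin and 61, 60.8 and 57.2 with knockdown. Overexpression libraries were the lowest and knockdown libraries the highest, without overlap. It was 1.86-fold lower and 1.48-fold higher (difference -1.42 ± 0.06, adjusted p = 2.3e-09). Dhcr7, which reduces the ring in the last step, was 1.45-fold lower and 1.61-fold higher (difference -1.19 ± 0.07, adjusted p = 5.8e-08), and Fdft1, squalene synthase, followed (-1.01 ± 0.05). The overexpression group had the lowest mean in 19 and the knockdown group the highest in 18 of the 24. Over all 11245 genes these numbers were 2677 and 2314. Exceptions were Sqle, squalene epoxidase, which rose in both (1.31-fold and 1.18-fold) and was the only member called higher in the difference, though not with median-ratio scaling, and Cyp51, Msmo1 and Insig1, which fell in both. Cyp51 fell 2.62-fold with more and 1.17-fold with less Foxp1, unequally (difference -1.13 ± 0.05, adjusted p = 6.3e-09). Hmgcs1, which feeds the pathway, fell slightly with overexpression only (1.12-fold).

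Antioxidant and glutathione genes, many of them targets of the stress factor NRF2, showed the same sense. Of 32 tested, 22 were lower and 2 higher in the difference (20.3% and 34.6% of all genes), with medians of -0.34 and 0.14. In the opposite class, 11 fell with more and rose with less Foxp1, beside 6% of all genes. Without overexpression replicate 3, 4 were higher in the difference. Gpx1, glutathione peroxidase 1, was at 242, 233 and 245 RPKM for the empty vector, 79.5, 74.1 and 66.9 with overexpression, 113, 118 and 121 with the scrambled hairpin and 188, 172 and 192 with knockdown. Overexpression libraries were the lowest, and knockdown libraries lay between the controls. Gpx1 was 3.26-fold lower and 1.57-fold higher (difference -2.34 ± 0.09, adjusted p = 6.8e-10). Cat, the peroxisomal catalase, Nqo1, a quinone reductase, and Mgst1, a membrane-bound glutathione transferase, were opposite with differences of -1.73, -1.44 and -1.41. Gsta4, Gstm1 and Ephx1 fell with overexpression only. Gstm1 has near-identical neighbours, so its fall (3.02-fold) is uncertain as to which copy. Slc7a11, the cystine carrier and a well-known NRF2 target, rose in both, 1.52-fold and 2.89-fold, and Sod2 rose with overexpression only. The scrambled hairpin group was lower than the empty vector group in 24 and higher in 5 of these genes. Over all genes the shares were 27% lower and 44.8% higher. The part of this control difference in the responses was not tested.

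The antioxidant element was searched as TGACNNNGC on both strands of the same windows. It was in 12.39% of all windows, 16.98% of tested genes with a window and 9 of 26 matched members of the list (34.62%). Mgst1 has 2 windows, and the first that holds the element (chr6:138140277-138140576, plus strand, GRCm38.p6, RefSeq) is shown with the match in capitals. Mgst1 was first among opposite genes that hold the element, by the larger adjusted p of both responses, smallest first. On the other strand the element reads GCNNNGTCA in the letters printed.
Mgst1: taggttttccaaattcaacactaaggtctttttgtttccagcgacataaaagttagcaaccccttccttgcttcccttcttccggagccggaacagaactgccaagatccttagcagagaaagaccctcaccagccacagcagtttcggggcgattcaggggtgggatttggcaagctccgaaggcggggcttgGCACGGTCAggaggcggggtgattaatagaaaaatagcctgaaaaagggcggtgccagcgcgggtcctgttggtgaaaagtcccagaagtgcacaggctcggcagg

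Subunits of the proteasome, which degrades tagged proteins, were lower in the difference for 24 and higher for 0 of 31 (20.3% and 34.6% of all genes). The shifts were small: medians were -0.15 for overexpression and 0.17 for knockdown. Psma5 and Psmd1 were opposite (-0.72 ± 0.09 and -0.56 ± 0.05), and Psma1 fell 2.11-fold with overexpression only. With median-ratio scaling, 29 members were lower.

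**Figure D4:**
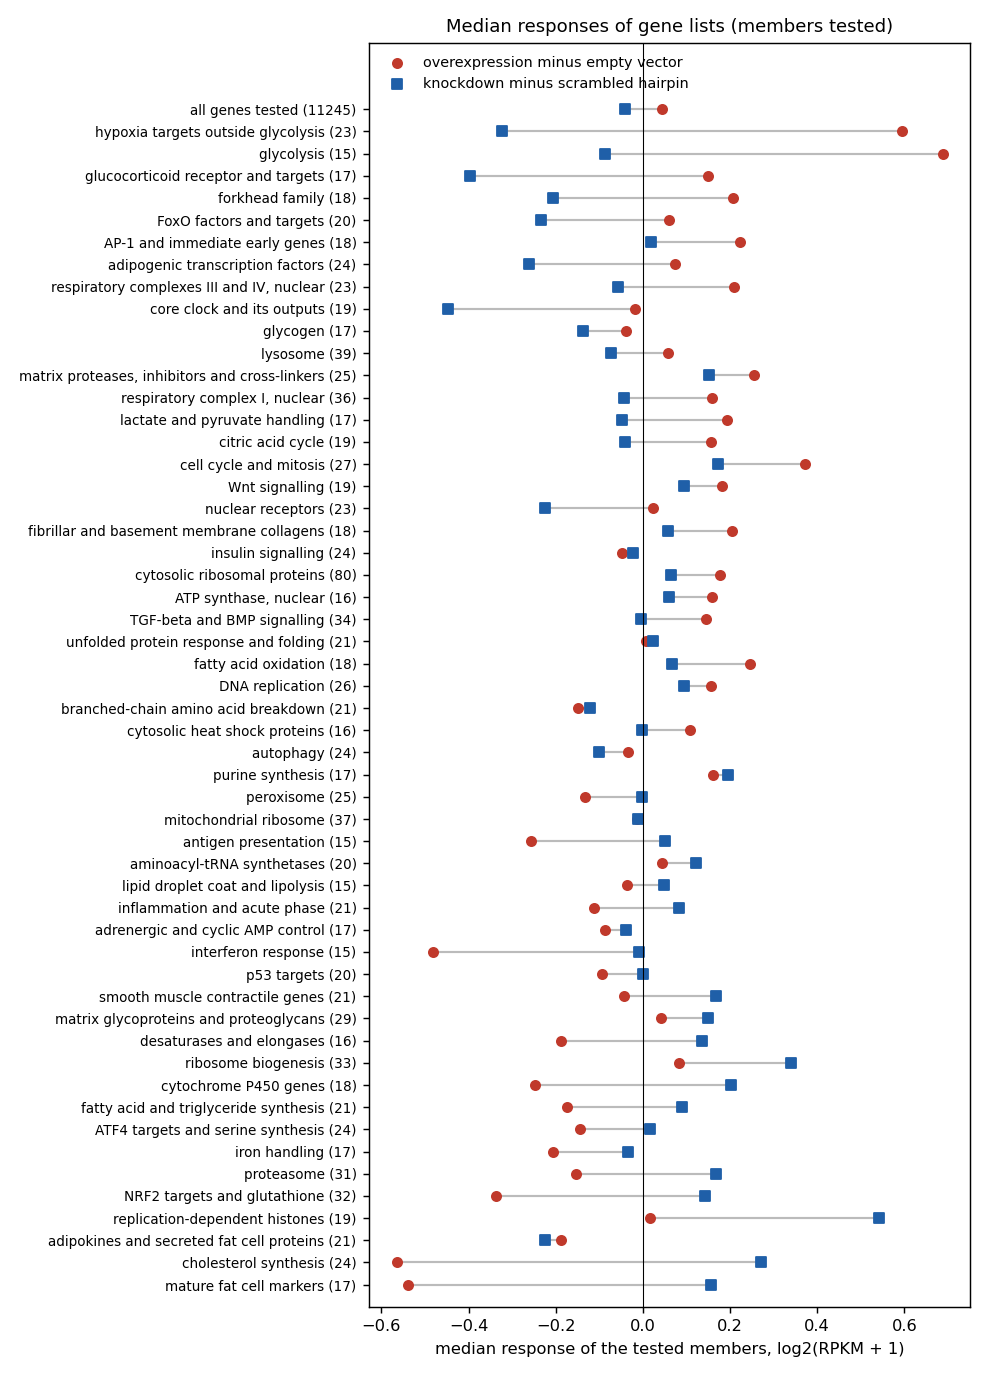
Median response of each list with at least 15 tested members (y axis, number tested in brackets) to overexpression (red circles) and knockdown (blue squares), on log2(RPKM + 1) (x axis). Lists are ordered by the median difference, with all genes on top; circles lie right of squares for hypoxia targets and glycolysis, left of them for cholesterol synthesis and fat cell markers, and both symbols lie on one side of 0 for cell cycle, ribosome biogenesis and branched-chain amino acid genes.

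Nuclear-encoded respiratory genes were not uniform. Of complex I, the entry of electrons from NADH, 16 of 36 subunits were higher (44.4%, beside 34.6% of all genes) and 0 lower in the difference, 10 of them raised by overexpression only and 4 opposite. With median-ratio scaling 12 were higher. Of complexes III and IV, 13 of 23 were higher (56.5%) and 0 lower (11 and 2 with median-ratio scaling). Of the nuclear genes of ATP synthase, 4 of 16 were higher (25%) and 1 lower. This became 1 higher and 2 lower with median-ratio scaling, and 7 were higher without overexpression replicate 3. Apart from Cox7a1, Cox8b and Cox6a2, the tissue isoforms, the steps were small, for example 0.65 ± 0.10 for Ndufa6 and 0.38 ± 0.05 for Cox5a. Mitochondrially encoded messengers did not follow in the difference, with 1 higher and 1 lower of 13 (7.69% each, beside 34.6% and 20.3% of all genes). Their medians were above 0 in both experiments, 0.344 for overexpression and 0.285 for knockdown. The sum of responses was called higher for 8 and lower for 0 of them, beside 23.1% and 24.7% of all genes. Lysosomal genes were higher in 20 (51.3%) and lower in 9 of 39 (23.1%, close to the 20.3% of all genes). Npc2, which binds cholesterol in the lysosome, and Tfeb, which switches lysosomal genes on, were up with more and down with less Foxp1 (0.96 ± 0.06 and 0.69 ± 0.08), whereas Ctsl, a cathepsin, and Psap, the saposin precursor, fell with overexpression only.

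**Figure D5:**
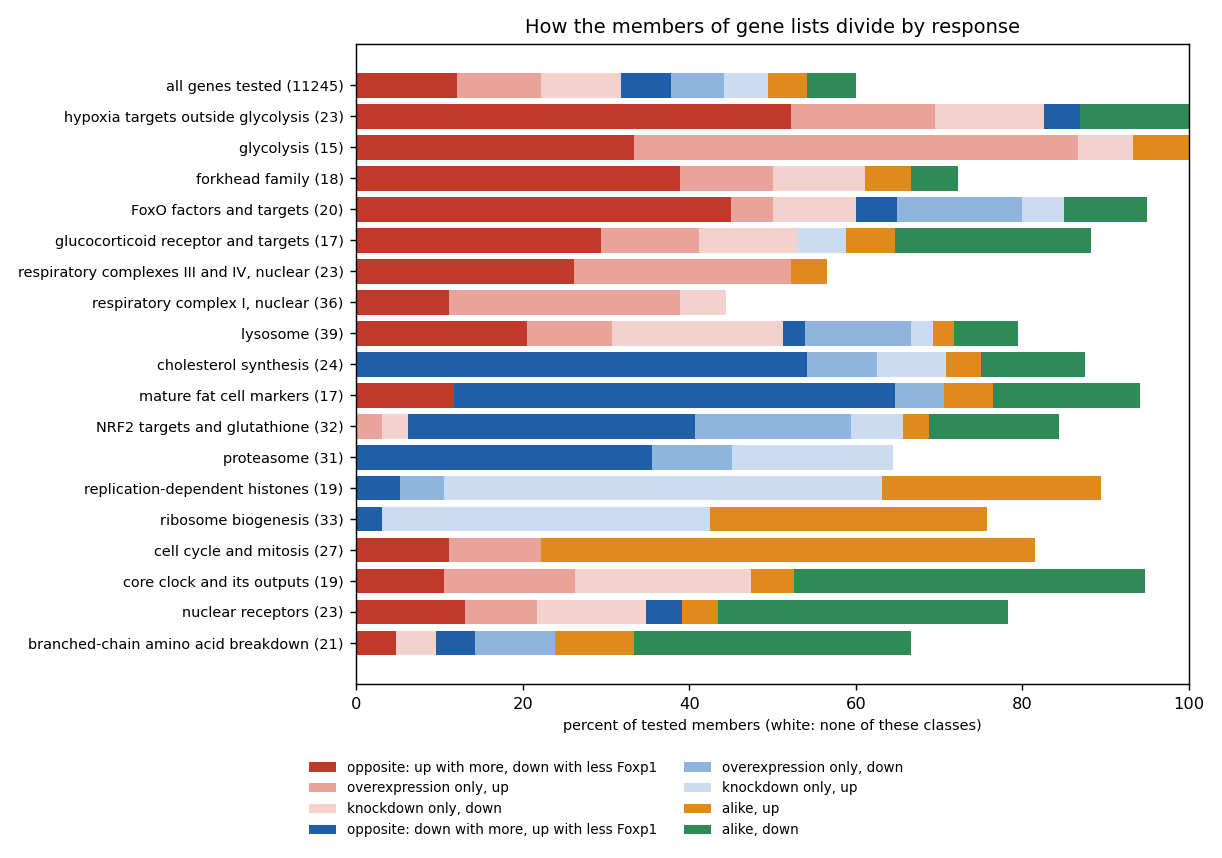
Share of tested members (x axis, percent) in each response class for 18 lists and for all 11245 genes (y axis, number tested in brackets). Dark red and dark blue are opposite responses, pale shades responses called in 1 experiment together with the difference, orange and green responses alike, and white none of these. Opposite classes fill 12 of 23 hypoxia targets (red) and 13 of 24 cholesterol genes (blue), and alike classes 16 of 27 cell cycle genes (orange) and 8 of 19 clock genes (green).

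Some genes answered in 1 experiment only. Cyp4a10, a fatty acid omega-hydroxylase, was at 0.0375, 0.074 and 0.0538 RPKM for the empty vector, 9.03, 8.39 and 9.48 with overexpression, 0.0249, 0 and 0.0376 with the scrambled hairpin and 0.0253, 0.0251 and 0.0126 with knockdown. Outside the overexpression group it was near the level of single reads, so no ratio is given. The overexpression response was 3.24 ± 0.05 and the knockdown response 0.00 ± 0.05 (difference 3.24 ± 0.07, adjusted p = 9.1e-12). Lpo, lactoperoxidase, rose from 0.20 ± 0.00887 to 8.55 ± 0.262 RPKM (SD, n = 3 each) and stayed at 0.421 ± 0.171 and 0.37 ± 0.0489 in the hairpin groups. Mc2r, the corticotropin receptor, was 4.1-fold lower with overexpression, with a knockdown response of 0.19 ± 0.08 (adjusted p = 0.082). On the knockdown side, Porcn, which attaches the lipid that Wnt proteins need, was at 36.2, 38.8 and 36.2 RPKM for the empty vector, 37.8, 38.7 and 45.6 with overexpression, 62.2, 67.2 and 61.2 with the scrambled hairpin and 23.7, 26 and 21.8 with knockdown. Knockdown libraries were the lowest of all and the overexpression libraries overlapped the empty vector. Porcn was 2.66-fold lower with knockdown (difference 1.51 ± 0.11, adjusted p = 1.8e-07).

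Among genes raised by knockdown only were S100a4, a fibroblast marker (2.41-fold, difference -1.54 ± 0.24), and Acta2, smooth muscle actin. Acta2 was at 35.2, 30.2 and 34.4 RPKM for the empty vector, 39.9, 31.5 and 38 with overexpression, 2.17, 2.14 and 2.13 with the scrambled hairpin and 14.3, 5.04 and 9.15 with knockdown. The scrambled libraries were low and the knockdown libraries between them and the empty vector group, so the 4.42-fold rise was towards the level of the other control. Replication-dependent histone genes were likewise low in the scrambled group. Of 19 tested, 0 were higher and 15 lower in the difference, beside 34.6% and 20.3% of all genes. By class, 10 were raised by knockdown only and 5 in both (5.31% and 4.72% of all genes). All 19 were lower in the scrambled group than with the empty vector, beside 27% of all genes. Hist1h4h was at 27, 30 and 29.6 RPKM for the empty vector, 31.5, 27.9 and 22 with overexpression, 4.96, 4.9 and 6.46 with the scrambled hairpin and 15.4, 11.1 and 14.8 with knockdown, with a knockdown response of 1.19 ± 0.14 and an overexpression response of -0.10 ± 0.14 (adjusted p = 2.5e-05 and 0.57). Histone copies share sequence, their messengers mostly lack a poly(A) tail, and how the libraries were selected is not given, so single copies are uncertain.

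Thbs1, the matrix protein thrombospondin 1, shows how an opposite call can sit on unlike controls. It was at 19.4, 17.1 and 18.2 RPKM for the empty vector, 11.1, 9.75 and 8.57 with overexpression, 0.647, 0.758 and 0.604 with the scrambled hairpin and 4.72, 4.57 and 4.3 with knockdown. It was 1.86-fold lower with more and 6.76-fold higher with less Foxp1 (difference -2.57 ± 0.11, adjusted p = 1.8e-09), yet all overexpression libraries exceeded all knockdown libraries. Other matrix genes were opposite from closer controls: Fn1, fibronectin, up with more and down with less (1.34 ± 0.10), and Dcn, decorin, the reverse (-2.02 ± 0.10). Postn, Fbn1 and Thbs2 rose in both.

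Among genes that responded alike in both experiments, Selenbp1, a methanethiol oxidase, fell. It was at 12.6, 15 and 13.5 RPKM for the empty vector, 5.52, 5.87 and 5.43 with overexpression, 17, 17.8 and 16.3 with the scrambled hairpin and 6.89, 7.55 and 7.8 with knockdown. Both manipulated groups lay below both controls. It was 2.45-fold and 2.3-fold lower, and the responses differed by -0.05 ± 0.09 (95% interval -0.24 to 0.14, adjusted p = 0.62). Cyb561, a transmembrane electron carrier, fell 2.17-fold and 2.54-fold, more with knockdown (difference 0.25 ± 0.06, adjusted p = 0.0059), although with median-ratio scaling that difference was 0.16 and not called. Depp1, a FoxO target, fell 1.98-fold and 3.89-fold. Gchfr, the feedback regulator of tetrahydrobiopterin synthesis, fell 2.08-fold with more and 2.08-fold with less. Serpinb9, an inhibitor of granzyme B, rose in both. It was at 9.0, 9.43 and 9.74 RPKM for the empty vector, 17, 16.8 and 17.8 with overexpression, 7.4, 7.04 and 7.25 with the scrambled hairpin and 14.5, 13 and 13.4 with knockdown. Both manipulated groups lay above both controls, 1.83-fold and 1.89-fold (difference -0.02 ± 0.06, 95% interval -0.16 to 0.12). Cyp4b1, a cytochrome P450, rose unequally, 9.79-fold and 2.97-fold (difference 1.65 ± 0.08, adjusted p = 1.1e-08). In 790 of the 1182 genes alike (7.03% of genes tested) the difference was not called, in 249 (2.21%) the overexpression response was the larger and in 143 (1.27%) the knockdown response.

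Clock genes mostly fell with knockdown, 14 of 19 tested with 1 up, beside 31% and 18.7% of all genes. Overexpression raised 6, close to the 31% of all genes, and lowered 8 (20.3% of all genes). In the difference 12 were higher (63.2%, beside 34.6% of all genes) and 1 lower, or 9 and 2 with median-ratio scaling. The lower call was lost without empty vector replicate 1 or 3, overexpression replicate 1, scrambled hairpin replicate 1 or knockdown replicate 3. By class, 8 fell in both and 1 rose in both, beside 5.79% and 4.72% of all genes. Dbp, a clock output factor, was at 23.5, 24.1 and 24.8 RPKM for the empty vector, 17.8, 20 and 18.7 with overexpression, 24.6, 26.7 and 24.1 with the scrambled hairpin and 11, 11.8 and 10.9 with knockdown. In each pair the manipulated libraries lay below their control. The falls were 1.28-fold and 2.24-fold, larger with knockdown (difference 0.75 ± 0.07, adjusted p = 2.5e-06). Per3 and Nr1d1, which the clock also switches on, fell in both. Arntl, the activator BMAL1 that Nr1d1 represses, rose in both, 1.38-fold and 1.28-fold. Per1, Per2, Nr1d2 and Bhlhe41 fell with knockdown only, Cry1, Nfil3 and Clock rose with overexpression only, and the repressor Bhlhe40 was opposite (1.31 ± 0.10). Harvest time of day is not given in the sources used here.

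Of 23 nuclear receptors tested, 8 fell in both (5.79% of all genes), and Vdr, the vitamin D receptor, rose in both (1.45-fold and 1.49-fold). This list shares members with the clock list, Nr1d1 among them, and Pparg, Rxra and Ppard with the fat cell regulators. Rxrb and the retinoic acid receptors Rara and Rarg were up with more and down with less Foxp1 (0.63 ± 0.05, 0.42 ± 0.06 and 0.71 ± 0.06). In branched-chain amino acid breakdown, a fuel route of mature fat cells, 7 of 21 fell in both (5.79% of all genes). Among them were Bckdha, a subunit of the committing dehydrogenase, and its phosphatase Ppm1k, with ratios of 0.799 and 0.827 and of 0.731 and 0.691. Bcat1, the cytosolic transaminase, rose in both, 3.07-fold and 1.65-fold. The kinase Bckdk, which switches the dehydrogenase off, was up with more and down with less (difference 0.37 ± 0.05), though not with median-ratio scaling in that class.

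Most cell division genes rose in both. Of 27 tested, 16 were up in both, beside 4.72% of all genes, and 3 opposite, with medians of 0.37 and 0.17. Kif11, a spindle motor, rose 2.32-fold and 1.3-fold, from 0.155 ± 0.012 and 0.892 ± 0.0603 RPKM in the controls (SD, n = 3). Cdc20 and Ube2c, which drive the exit from mitosis, rose 1.62-fold and 1.36-fold and 1.61-fold and 1.37-fold. In the difference 11 genes were higher (40.7%, beside 34.6% of all genes) and 0 lower. The higher count was 7 with median-ratio scaling and 18 with a pseudocount of 0.1. Ccne2, cyclin E2, rose with more and fell with less Foxp1 (0.84 ± 0.07). The empty vector group had the lowest mean in all 27, beside 3801 of all 11245 genes. All 27 were higher with the scrambled hairpin, beside 44.8% of all genes. DNA replication genes held 6 of 26 up in both, among them Mcm3, Mcm5 and Mcm6 of the replicative helicase, while Mcm4 and Mcm7 rose with knockdown only and Mcm2 with overexpression only.

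Ribosome biogenesis leaned to knockdown. Of 33 tested, 20 were lower and 1 higher in the difference, beside 20.3% and 34.6% of all genes. By class, 11 rose in both and 13 with knockdown only (4.72% and 5.31% of all genes). Nop56, a core protein of the box C/D snoRNP, was at 13.4, 13.4 and 13.3 RPKM for the empty vector, 19, 17.3 and 16.2 with overexpression, 12.7, 14.1 and 14.9 with the scrambled hairpin and 27.1, 26.2 and 27 with knockdown. Knockdown libraries were the highest, overexpression next, and the controls overlapped. It rose 1.31-fold and 1.93-fold (difference -0.54 ± 0.08, adjusted p = 1.5e-04). Dkc1, the snoRNP pseudouridine synthase, and Polr1b, a subunit of RNA polymerase I, rose with knockdown only (1.58-fold and 1.79-fold). The knockdown group had the highest mean in 28 of 33, beside 2314 of all 11245 genes. Genes of cytosolic ribosomal proteins did not follow: 14 of 80 were higher (17.5%, beside 34.6% of all genes) and 0 lower in the difference. With median-ratio scaling 8 were higher. In the difference 34 were higher without overexpression replicate 3, and 7 were lower without overexpression replicate 1.

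Fatty acid oxidation held 5 of 18 genes up in both (4.72% of all genes), with the gatekeeper Cpt1a 1.4-fold and 1.89-fold higher and the dehydrogenases Acadm and Acadl alongside. Acaa2, the mitochondrial thiolase, rose 2.26-fold with overexpression only. In TGF-beta and BMP signalling 8 of 34 were up with more and down with less Foxp1 (12.1% of all genes) and 7 rose in both (4.72%), among the latter Fst, the activin antagonist follistatin, and Ltbp1. Tgfbi, Skil and Smad3 were in the opposite class (1.03 ± 0.08, 0.68 ± 0.08 and 0.59 ± 0.07; Smad3 was chosen after its values were seen), and Id1 and Id4, which block differentiation factors, the reverse (-0.81 ± 0.14 and -0.47 ± 0.11).

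Promoter windows were also searched for the forkhead core TGTTTAC on both strands. It was in 3.65% of all windows and in 247 of 8362 tested genes with a window (2.95%). Among genes with a ratio of at least 1.5 in each experiment it was in 1 of 102 raised by more (0.98%), 3 of 67 lowered by more (4.48%), 2 of 27 up in both (7.41%) and 3 of 24 down in both (12.5%). Over the whole classes the shares were 3.02%, 4.7%, 1.5% and 4.49%. It was in 0 of 15 glycolytic, 0 of 11 forkhead and 0 of 17 cholesterol genes with a window, which says only that these letters are not in these windows. The windows below are from RefSeq on GRCm38.p6. They belong to genes that hold the core among those raised by more, lowered by more and down in both with such ratios. Genes were ranked by the larger adjusted p of both responses, smallest first, and were chosen after their values were seen. Pim1, a survival kinase, lies at chr17:29492835-29493134, Tmem140, a membrane protein, at chr6:34862896-34863195 and Anxa8, an annexin, at chr14:34085729-34086028, all on the plus strand. Capitals mark the core, which reads GTAAACA where it lies on the other strand, and in Tmem140 it occurs 2 times. Pim1 was 2.09-fold higher and 2.18-fold lower, Tmem140 5.07-fold lower and 1.67-fold higher, and Anxa8 3.76-fold and 1.5-fold lower.
Pim1: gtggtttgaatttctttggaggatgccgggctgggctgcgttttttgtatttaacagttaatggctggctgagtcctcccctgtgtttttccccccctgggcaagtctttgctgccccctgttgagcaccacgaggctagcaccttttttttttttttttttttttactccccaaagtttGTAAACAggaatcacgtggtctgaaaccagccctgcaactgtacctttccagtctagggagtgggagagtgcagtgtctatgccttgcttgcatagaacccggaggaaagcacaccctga
Tmem140: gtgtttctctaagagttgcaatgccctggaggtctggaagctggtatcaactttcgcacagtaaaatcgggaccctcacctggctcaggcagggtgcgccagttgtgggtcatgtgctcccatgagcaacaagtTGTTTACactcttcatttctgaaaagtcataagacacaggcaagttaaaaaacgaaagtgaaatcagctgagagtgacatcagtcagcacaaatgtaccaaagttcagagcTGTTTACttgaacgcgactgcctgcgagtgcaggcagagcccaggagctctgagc
Anxa8: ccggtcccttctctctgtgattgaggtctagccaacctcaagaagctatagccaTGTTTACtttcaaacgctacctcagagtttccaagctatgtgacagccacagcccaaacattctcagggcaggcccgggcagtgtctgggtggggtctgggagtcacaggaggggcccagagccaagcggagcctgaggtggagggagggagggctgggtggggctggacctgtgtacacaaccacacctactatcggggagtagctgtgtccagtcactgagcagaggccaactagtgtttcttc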

How the data were processed

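Gene expression was measured by RNA-seq in 12 libraries. The authors deposited RPKM per gene, divided by 1000, and values were multiplied back. The submitters' processing notes name mm10, HISAT2 2.1.0, featureCounts and Subread 1.5.3, without settings. Strand setting and treatment of multi-mapped reads are not given in the sources used here. Symbols, positions and exon lengths were joined from GENCODE M21 (Ensembl 98) for 28896 of 28948 gene identifiers. Depth was read from the values: RPKM times exon length gave whole multiples of 1 read, within 0.05 reads, for 98.85% to 98.97% of values. In a 1 kb transcript 1 read is worth 0.026 to 0.0284 RPKM.

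Analysis was on log2(RPKM + 1) of genes that reached 1 RPKM in 3 or more libraries. Adding 1 understates changes of genes with low values. limma 3.58.1 (R 4.3.3, eBayes with trend) was fitted to 4 group means, without a replicate block, and contrasts were called at a Benjamini-Hochberg adjusted p under 0.05 over all 11245 genes. All adjusted p-values in the text are from limma. Fold changes are ratios of mean RPKM. Groups came from the sample labels, and none was left out. On simulated data, 37 of 50 genes with a 1.5-fold and 50 of 50 with a 2-fold difference of responses were called, beside 15 of 10851 unchanged genes.

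A gene was opposite where both responses were called with unlike signs, alike where both were called with like signs, and changed in 1 experiment only where exactly 1 response and the difference were called. Gene lists are hand-written. The genes named are up to 4 per class and direction in each list by smallest adjusted p, the forkhead genes and all members of lists of at most 8 tested genes. Over all genes with at least 5 RPKM in the highest group, the 8 largest per class and direction were added. The adjusted p ranked was the larger of both responses in opposite and alike classes, and that of the difference otherwise. Members and lists were chosen with earlier results of these data known. Some genes that this rule selects are not reported here. Alternatives varied the pseudocount, filter, scaling, variance model, threshold, replicate block and libraries used.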

Additional observations from a re-analysis of the deposited data

How the results depend on the processing

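Counts over all genes under the alternatives stayed within 1.5 times the reported value in 224 instances and moved further in 6. The majority among called differences did turn, from 3888 higher and 2285 lower to 3009 higher and 3053 lower with median-ratio scaling. No called difference of a named gene changed sign under the alternatives run. With a filter of 5 RPKM the difference was called higher for 2582 genes, from fewer genes tested (7181). With libraries rescaled to TPM 288 genes rose in both, and the cause was not tested. At an adjusted p under 0.01, opposite classes held 877 (raised by more) and 426 (lowered by more) genes, and alike classes 272 up and 398 down, by the stricter threshold. The share called higher among genes with a called difference was 63% as reported, 49.6% with median-ratio scaling, 50.7% with quantile normalization, 60.4% with TPM and 64.8% without mitochondrial transcripts. Leaving out each library in turn gave 5696 to 6678 genes for the difference (3573 to 4401 higher, 2063 to 2333 lower), 4965 to 6221 for overexpression, 4758 to 6181 for knockdown and 4768 to 5933 for the sum. It gave 1167 to 1590 genes raised by more, 563 to 704 lowered by more, 421 to 725 up in both and 554 to 670 down in both. The highest counts of genes raised by more and of genes up in both came without overexpression replicate 3. Of the counts within gene lists, 2993 stayed within 1.5 times and 181 moved further, most of them small counts. Cell cycle genes called higher numbered 18 with a pseudocount of 0.1. Same-numbered libraries had deviations that correlated at -0.166 to 0.233, and differently numbered ones at -0.309 to 0.237. These ranges overlap and cannot decide whether replicate numbers pair the libraries. With the replicate block, 3981 genes were higher and 2347 lower. Depth limits genes near 1 RPKM most.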
